A study of Mus musculus with 4 samples.

Results

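Mitosis and spindle genes were described across 4 arrays of sorted mouse bone marrow cells, 2 genotypes in 2 cell populations. The set was a list of 40 genes for cyclins, mitotic kinases, the spindle checkpoint, kinetochores, spindle motors, cytokinesis and anaphase, taken by gene symbol. No value on these arrays entered the rule, but the list was proposed with earlier results of these data in view. Of the 40 genes, 39 were named by a probe set of their own, against 18193 genes on the array as a whole; Ccnb1 was not analysed here. The 39 genes had 88 probe sets, 67 of which passed a filter on low signal, a mean above a log2 intensity of 7.23, and each of the 39 genes kept at least 1. Each gene was read from its brightest probe set.

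All mice carried floxed alleles of Smo, labelled Smo flox/flox, and all received 3 doses of polyI:C, an interferon inducer, at 20 ug per g. Smo encodes Smoothened, the membrane protein that relays the hedgehog signal. Mice without the Cre transgene (Mx1Cre-) are called wild type (WT), and mice with it (Mx1Cre+) Smo-deficient. The Mx1 promoter that drives this Cre responds to interferon and is active in many tissues, so Cre is not limited to blood cells. Marrow was taken 6 weeks after treatment from 4 mice per genotype, males and females mixed, and was pooled before sorting; the age was not given. LSK cells lack mature lineage markers and carry Kit and Sca-1, a fraction that holds the blood stem cells, and MP cells are the lineage-negative, Kit-positive, Sca-1-negative myeloid progenitors. The strain labels were C57BL/6x129 (WT) and C57BL/6x130 (Smo-deficient) for the LSK samples and C57BL/6x131 and C57BL/6x132 for the MP samples. LSK and MP cells of a genotype came from the same pool of mice, so labels that differ between them do not describe different animals. The strain labels were not used. Each of the 4 groups was 1 array from 20 ng of RNA after 2 rounds of amplification, so a genotype difference compares 1 pool with 1 pool and has no replicate error.

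The arrays correlated with each other at 0.980 to 0.994 (Pearson, across probe sets). Smo itself was lower in both Smo-deficient samples. Its brighter probe set read a log2 intensity of 10.81 in the WT sample and 6.13 in the Smo-deficient sample of LSK cells, and 10.40 and 6.36 in those of MP cells. Procr, Mecom and Hlf, which mark stem cells, were higher in LSK than in MP by log2 differences of 3.78, 3.57 and 2.95, and the gene for Sca-1 was not analysed here. The hybridisation spikes, which are added to every array in the same amount, did not read alike. Over 18 spike probe sets the Smo-deficient array minus the WT array was 0.11 ± 0.06 (SD) in LSK and -0.32 ± 0.11 in MP on the log2 scale. In MP the shift has the sign of the genotype differences below and in LSK the opposite sign, and the counts and medians of the mitosis genes are read against the same over all genes on the same arrays.

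Mitosis is driven by cyclin-dependent kinase 1 bound to cyclins A and B, with the Aurora and Polo-like kinases building the spindle. The spindle checkpoint holds back the anaphase-promoting complex until every kinetochore is attached, after which securin and cyclin B are destroyed, separase opens cohesin and the cell divides. Transcripts of these genes build up late in the cycle and are low in resting cells. In marrow most long-term stem cells rest, while progenitors divide often. Many of these genes share a promoter element called the cell cycle genes homology region (CHR), which the DREAM complex occupies in resting cells and the MYB-MuvB complex with FOXM1 in dividing ones, often beside CCAAT boxes bound by NF-Y.

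RefSeq promoters of the GRCm38.p6 build, from 250 bases before to 50 bases after the gene start, were matched to 33 of the 40 genes, with 36 promoters in all because Bub3, Prc1 and Ect2 have 2 each. Foxm1, Incenp, Kif20a, Cdc25c, Tpx2, Aurkb and Ccna2 were not matched. Windows of 30 bases around the CHR match nearest to the gene start are shown, because this short element is the sequence that most of the set shares. They are given for the lowest genes in LSK against MP (Cenpa, Plk1, Anln) and against WT (Bub1b, Plk1, Ube2c). Windows of Ccnb2, Cdk1, Mki67 and Top2a are added. Other genes with a match, such as Cdc25b, Kif23, Kif2c and Cenpf, are not shown. The windows read 5' to 3' on the strand of the gene, and the capitals mark TTTGAA, or TTCAAA where it lies on the opposite strand. Anln has a match on each strand in its window, and the Bub1b window ends where the promoter of the table ends.
Cenpa: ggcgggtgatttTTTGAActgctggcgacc
Plk1: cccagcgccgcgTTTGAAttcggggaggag
Anln: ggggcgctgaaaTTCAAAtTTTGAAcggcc
Bub1b: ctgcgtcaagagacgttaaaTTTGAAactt
Ube2c: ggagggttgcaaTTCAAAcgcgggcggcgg
Ccnb2: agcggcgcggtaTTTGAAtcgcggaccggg
Cdk1: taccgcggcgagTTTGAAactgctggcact
Mki67: ccgccgttttggTTTGAAtcgggcgggctg
Top2a: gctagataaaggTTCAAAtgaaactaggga
The windows lie at chr5:30666890-30666919 for Cenpa (plus strand), chr7:122159453-122159482 for Plk1 (plus strand), chr9:22389168-22389197 for Anln (minus strand). Others lie at chr2:118598231-118598260 for Bub1b (plus strand), chr2:164769888-164769917 for Ube2c (plus strand). The remainder lie at chr9:70421533-70421562 for Ccnb2 (minus strand), chr10:69352910-69352939 for Cdk1 (minus strand), chr7:135716460-135716489 for Mki67 (minus strand) and chr11:99024195-99024224 for Top2a (minus strand).

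A CHR match (TTTGAA or TTCGAA, both strands) was present in 28 of 36 promoters of mitosis genes, or 77.8%. Over all 32851 RefSeq promoters of the same length the share was 19.2%, and over the 21262 of protein-coding genes 17.6%. Within 50 bases of the gene start, 25 of 36 mitosis promoters (69.4%) held the match, against 4.35% of protein-coding promoters. Of the 38 CHR matches, 29 were on the strand of the gene and 9 on the opposite strand, with TTCGAA, which reads alike on both strands, counted on that of the gene. The 2 promoters of Bub3, of Prc1 and of Ect2 overlap, so a site that lies in both was counted in each, here and in the shares of promoters. By gene, 25 of 33 had a CHR match. The CCAAT box (CCAAT, both strands) was in 28 of 36 as well, or 77.8%, against 38.2% of protein-coding promoters. Both elements together were in 25 of 36 promoters (69.4%), against 7.11% of protein-coding promoters. Matches of the 2 elements that overlapped each other were both counted. The E2F motif as searched (TTCCCGCC, both strands) was in 0 of 36 and in 2.85% of protein-coding promoters.

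**Figure D1:**
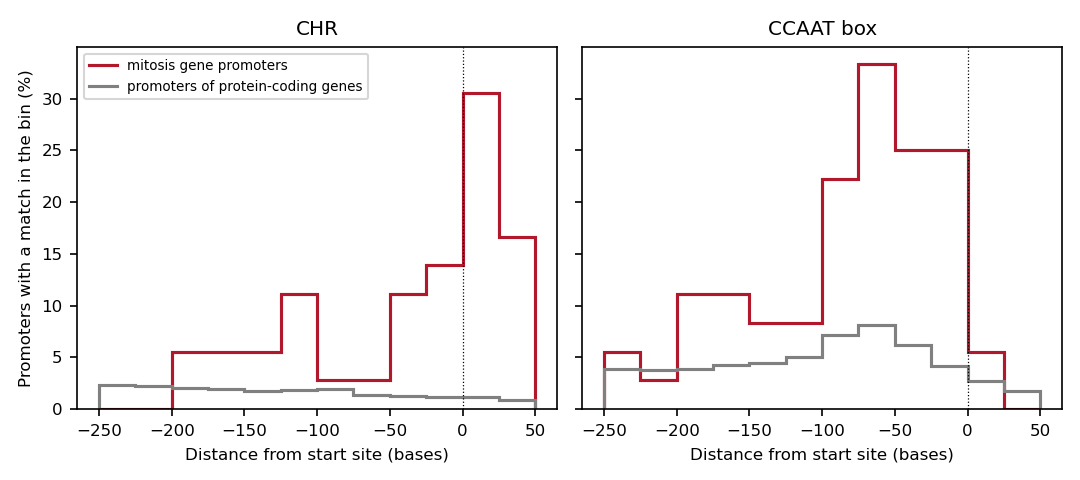
Position of CHR (left) and CCAAT box (right) matches relative to the gene start in RefSeq promoters. The x axis is the distance in bases in bins of equal width, and the y axis the percentage of promoters with a match that begins in the bin, for the 36 promoters of mitosis genes (red) and the 21262 of protein-coding genes (grey). The CHR matches of the mitosis genes are most frequent from the start to 25 bases after it, and their CCAAT boxes from 75 to 50 bases before it.

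Stretches upstream of the start are shown for the genes with the most negative difference between LSK and MP (Cenpa, Plk1, Anln) and between genotypes (Bub1b, Plk1, Ube2c). CCAAT boxes (CCAAT, or ATTGG where the box lies on the opposite strand) and CHR matches are in capitals.
Cenpa, chr5:30666736-30666876, plus strand: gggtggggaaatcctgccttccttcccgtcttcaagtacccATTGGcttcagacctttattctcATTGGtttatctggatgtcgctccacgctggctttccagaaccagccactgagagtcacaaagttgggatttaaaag
Plk1, chr7:122159285-122159434, plus strand: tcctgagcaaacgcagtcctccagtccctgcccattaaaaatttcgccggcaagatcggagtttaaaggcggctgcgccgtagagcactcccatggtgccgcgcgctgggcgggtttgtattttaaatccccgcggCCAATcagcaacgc
Anln, chr9:22389212-22389356, minus strand: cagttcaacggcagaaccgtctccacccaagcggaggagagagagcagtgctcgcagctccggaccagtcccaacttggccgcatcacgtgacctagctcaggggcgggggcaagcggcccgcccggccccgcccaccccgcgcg
Bub1b, chr2:118598061-118598201, plus strand: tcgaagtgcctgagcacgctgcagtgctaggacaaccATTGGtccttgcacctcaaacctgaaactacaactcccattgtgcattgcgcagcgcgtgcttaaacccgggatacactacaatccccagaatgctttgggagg
Ube2c, chr2:164769779-164769928, plus strand: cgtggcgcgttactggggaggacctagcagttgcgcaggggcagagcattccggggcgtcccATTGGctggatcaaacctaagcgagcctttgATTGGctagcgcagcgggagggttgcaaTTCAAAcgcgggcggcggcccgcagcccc
Cenpa and Ube2c have a pair of boxes each, Plk1 and Bub1b have 1 in this stretch, and Anln has none. Only Ube2c among these 5 has its CHR match inside the stretch printed. A match is a run of letters, and binding was not measured here.

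The question of the genotype comparison is whether mitosis transcripts differ where Smo was deleted. They read lower. In LSK cells 35 of 39 mitosis genes (89.7%) were below WT, against 53.2% of the 11904 genes past the filter. In MP cells 36 of 39 (92.3%) were, against 59.7% of all genes. In both populations 34 of 39 (87.2%) were below WT, against 39.4% of all genes. The median difference of the mitosis genes was -0.21 on the log2 scale in LSK and -0.32 in MP, against -0.02 and -0.05 over all genes. The differences were small, from -0.51 to 0.21 in LSK and from -0.66 to 0.17 in MP. Bub1b in MP, lower 1.58-fold, was the widest of them. With 1 pool a genotype there is no test, and the pools may differ in more than Smo.

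A difference of at least 0.32 on the log2 scale was used for counting and is called the counting size below. In LSK 7 of 39 mitosis genes (17.9%) were that much lower, against 5.84% of all genes, and 0 of 39 were that much higher, against 10.3%. In MP 19 of 39 (48.7%) were that much lower, against 13% of all genes, and 0 of 39 were higher, against 8.4%. The 6 genes lower by that amount in both populations were Plk1, Nek2, Bub1b, Cenpf, Tpx2 and Ube2c, or 15.4% of the set against 3.02% of all genes. Against genes above the 75th percentile of signal the backgrounds were 6.02% in LSK, 16.4% in MP and 44.5% below WT in both, where the 38 mitosis genes above it gave 7, 18 and 33 genes. In bulk samples, fewer dividing cells and less of these RNAs per cell cannot be told apart.

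The size depended on how the arrays were scaled. In LSK the count of lower genes was 5 of 39 after cyclic loess normalization (background 4.75%). It was 9 of 39 with quantile normalization applied again (background 6.79%) and 14 of 39 with arrays shifted to 1 median (background 8.69%). With arrays shifted to equal spikes it was 20 of 39 (background 15.9%), where the median was -0.33. In MP the count with quantile normalization applied again was 12 of 39 (background 7.72%), and under equal spikes it was 1 of 39 (background 1.5%), with the median of all genes at 0.27 and that of the mitosis genes at 0.003. Relative to the median of all genes, the mitosis genes stood at -0.27 in MP under the values as deposited and at -0.20 after quantile normalization. In LSK the values were -0.20 and -0.17. Equal spikes shift each whole array by 1 amount, so they cannot change this relative value and say nothing about it.

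**Figure D2:**
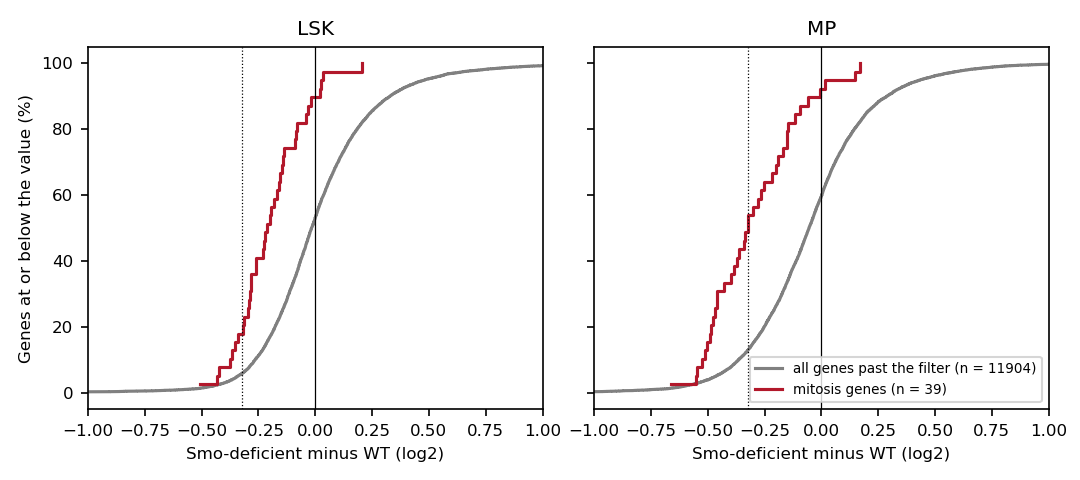
Cumulative share of genes (y axis, percent) at or below a given log2 difference, Smo-deficient minus WT (x axis), in LSK (left) and MP (right), for the 39 mitosis genes (red) and all 11904 genes past the filter (grey). The dotted line marks -0.32, the counting size; the red curve lies to the left of the grey one, with medians of -0.21 and -0.32 against -0.02 and -0.05, and a few genes beyond the axis limits are not drawn.

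Among cyclins, CDK1 and its activators, 5 of 6 genes were below WT in both populations. Ccna2, the cyclin of S phase and mitotic entry, read 12.54 (WT) and 12.20 (Smo-deficient) in LSK cells and 12.46 and 12.14 in MP cells (log2 intensity, in this order for every gene below). Both WT arrays were above both Smo-deficient arrays, by 0.34 in LSK and 0.32 in MP, and its other probe set gave differences of -0.33 and -0.35. This order of the 4 arrays also held for genes not marked so below, such as Kif4 and Espl1. Its share over all genes is not given here, so it only describes the values. Ccnb2, a mitotic B-type cyclin, read 12.72, 12.53, 12.58 and 12.20. Cdk1, the kinase itself, read 12.17, 11.91, 12.11 and 11.77, so that both WT arrays again lay above both Smo-deficient ones. Cdc25c, a phosphatase that switches CDK1 on, had differences of -0.20 and -0.55. Foxm1, the transcription factor of this programme, had -0.08 and -0.19. Cdc25b, a related phosphatase, was the exception at 9.98, 10.01, 9.38 and 9.53, slightly above WT in both populations.

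The 8 mitotic kinases had the most negative medians of any role, -0.29 in LSK and -0.43 in MP. Bub1b, the checkpoint protein BUBR1, read 12.41, 11.98, 12.40 and 11.74. Plk1, the Polo-like kinase of mitotic entry and spindle assembly, read 10.98, 10.47, 11.42 and 10.87. Nek2, which acts in centrosome separation, read 11.61, 11.24, 11.85 and 11.38. In all 3 the Smo-deficient array was below its WT partner by at least the counting size in LSK and in MP, and both WT arrays were above both Smo-deficient arrays. Aurka and Aurkb, the Aurora kinases of spindle poles and of the chromosomal passenger complex, had differences of -0.29 and -0.21 in LSK and of -0.47 and -0.40 in MP. Ttk, the checkpoint kinase MPS1, had -0.28 and -0.17. Bub1, a kinetochore checkpoint kinase, read 11.25, 11.03, 11.35 and 10.99 on its brighter probe set, and the dimmer one gave -0.31 and -0.29.

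Plk4, which starts centriole duplication, was not consistent between probe sets. The brightest read 11.88, 11.79, 11.83 and 11.85, differences of -0.09 and 0.02. The other 2 probe sets past the filter gave -0.16 and -0.36 in LSK and -0.33 and -0.54 in MP. The near-zero value of Plk4 in MP therefore holds for its brightest probe set only.

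Both genes of the spindle checkpoint complex read below WT. Mad2l1, which blocks the anaphase activator Cdc20, had differences of -0.16 and -0.27. Bub3, which recruits the Bub kinases to kinetochores, read 13.87, 13.85, 13.83 and 13.63 on its brightest probe set, with only Smo-deficient MP set apart. Its second probe set past the filter gave -0.24 and -0.41.

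All 7 kinetochore, centromere and passenger genes were below WT in both populations. Cenpe, a kinetochore motor, read 10.14, 9.83, 10.38 and 9.87, and its other probe set gave -0.31 and -0.61. Cenpf, a large kinetochore protein of late cycle cells, read 10.99, 10.56, 10.93 and 10.59, with both WT arrays above both Smo-deficient ones. A dimmer Cenpf probe set gave 0.00 and -0.23. Cenpa, the histone H3 variant that marks centromeres, read 11.83, 11.55, 12.67 and 12.21. Its genotype differences were -0.28 and -0.46, and the population set its level more than the genotype did. Incenp, the scaffold of the passenger complex, read 12.98, 12.84, 12.96 and 12.70. Birc5, or survivin, of the same complex read 11.31, 11.17, 11.51 and 11.42. Ndc80 and Nuf2, which together hold microtubules, had differences of -0.09 and -0.03 in LSK and -0.22 and -0.06 in MP.

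All 7 spindle motors and midzone genes were also below WT in both populations. Kif11, the motor that pushes spindle poles apart, read 10.57, 10.26, 10.69 and 10.19. Its second probe set gave -0.09 and -0.40, and its dimmest past the filter -0.50 and 0.14, so the sign in MP differed between probe sets. Tpx2, which activates Aurora A on the spindle, read 11.40, 11.05, 11.49 and 11.03. Its other 3 probe sets past the filter also read below WT, by 0.31 to 0.40 in LSK and 0.28 to 0.44 in MP. Kif20a, a midzone motor, had differences of -0.22 and -0.49, and Kif4, which shapes chromosomes and the midzone, had -0.26 and -0.30. Prc1, which bundles midzone microtubules, had -0.16 and -0.32, just short of the counting size in MP. Kif2c, a microtubule depolymerase at centromeres, read 11.21, 11.03, 11.52 and 11.40. Kif23, a motor of the cytokinetic midbody, read 11.19, 11.15, 10.79 and 10.64, with a difference of -0.04 in LSK that is the smallest of the motors.

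The 3 cytokinesis genes did not share a direction in LSK. Anln, a scaffold of the contractile ring, read 10.46, 10.31, 10.95 and 10.52. Racgap1, a partner of Kif23 in centralspindlin, read 10.48, 10.50, 10.32 and 10.17, while its second probe set gave -0.27 and -0.09. Ect2, the exchange factor that activates RhoA at the cleavage furrow, read 11.47, 11.68, 11.57 and 11.56. Its difference of 0.21 in LSK was the most positive of the set in that population.

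Genes of anaphase proteolysis and cohesin release were lower in 3 of 4 cases. Ube2c, the ubiquitin-conjugating enzyme of the anaphase-promoting complex, read 12.14, 11.76, 12.20 and 11.72, with both WT arrays above both Smo-deficient arrays. Espl1, or separase, had differences of -0.29 and -0.53. Cdc20, the activator of the complex, had -0.17 and -0.28. Pttg1, or securin, the inhibitor of separase, read 12.79, 12.82, 12.86 and 13.03 and was the most positive gene in MP. Its second probe set gave 0.03 and 0.10 and its dimmest -0.43 and -0.16.

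Mki67, the protein by which dividing cells are commonly stained, read 13.25, 12.95, 13.41 and 13.04. Top2a, the topoisomerase that untangles chromosomes, read 13.59, 13.36, 13.51 and 13.36. In both genes both WT arrays lay above both Smo-deficient arrays.

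The 67 probe sets past the filter include the brightest of each of the 39 genes, from which the gene values above were taken. Counts by probe set are therefore not independent of those by gene. Of the 67 probe sets past the filter, 61 were below WT in LSK and 61 in MP. Over all genes past the filter, each read from 1 probe set, 53.2% were below WT in LSK and 59.7% in MP. Of the 20 genes with more than 1 such probe set, all their probe sets had the same sign in 17 genes in LSK and in 16 in MP. Among the 21 probe sets below the filter, 8 were below WT in LSK and 13 in MP, so the lean toward lower values was not seen there in LSK. The share over all probe sets below the filter is not given here, so these counts only describe the values.

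**Figure D3:**
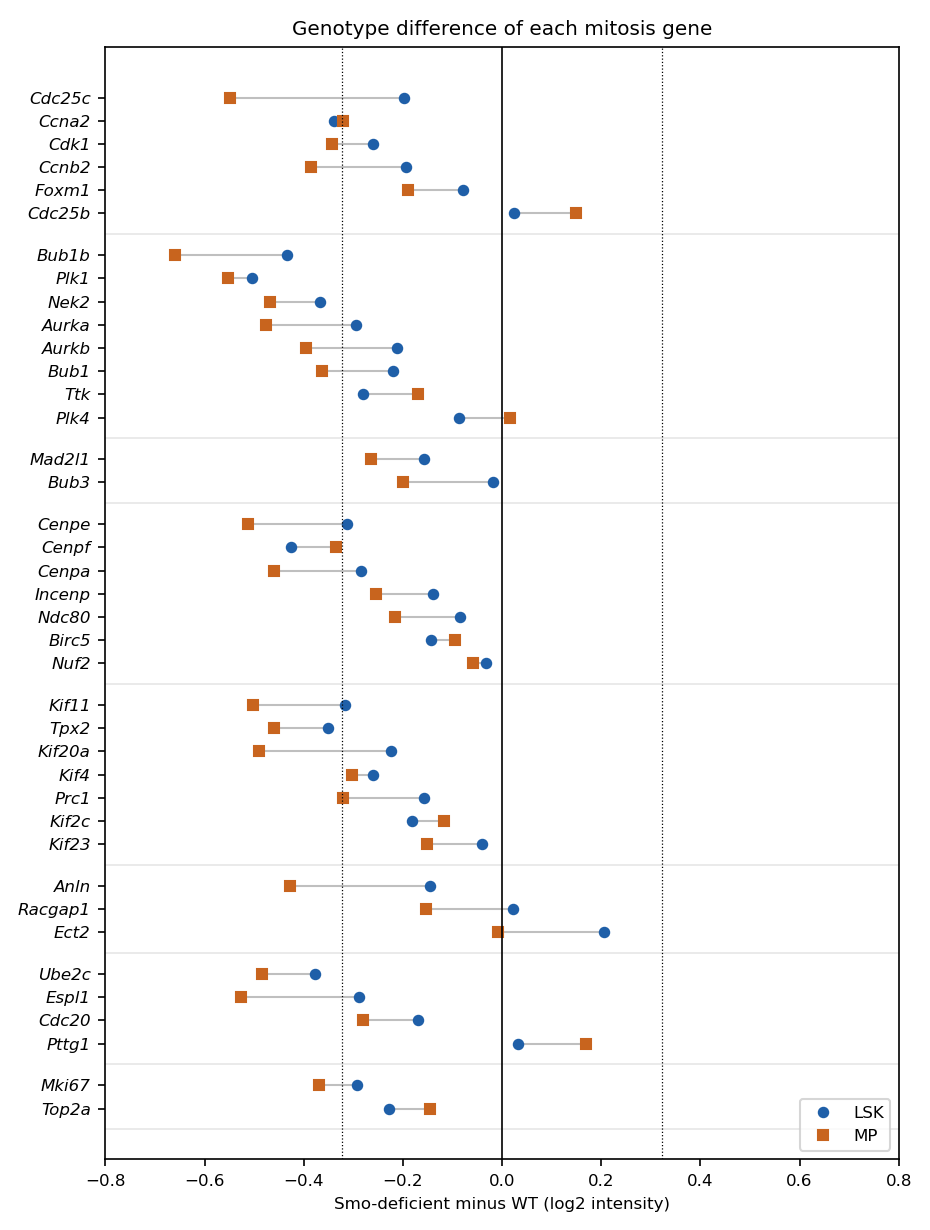
Genotype difference of each of the 39 mitosis genes (Smo-deficient minus WT, log2 intensity, x axis) in LSK (blue circles) and MP (orange squares), grouped by role in the order of the text and sorted by the mean of both within a role. Dotted lines mark the counting size of 0.32 in either direction; most pairs lie to the left of 0, and Cdc25b and Pttg1 lie to the right of it in both populations. Each point compares 1 array with 1 array.

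The difference between genotypes was more negative in MP than in LSK for 30 of 39 mitosis genes (76.9%). The same held for 59.8% of all genes, and for 67.1% of genes above the 75th percentile of signal. The median of the LSK difference minus the MP difference was 0.11 for mitosis genes and 0.06 for all genes. Cdc25c had the widest gap among them, at 0.35. The 9 genes that went the other way were Ccna2, Cdc25b, Plk4, Ttk, Cenpf, Birc5, Kif2c, Pttg1 and Top2a. The median gap was 0.0105 after quantile normalization, 0.0138 with arrays shifted to 1 median and 0.0396 after cyclic loess normalization. Under equal spikes it was -0.33, so that its size and direction depended on the scaling.

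**Figure D4:**
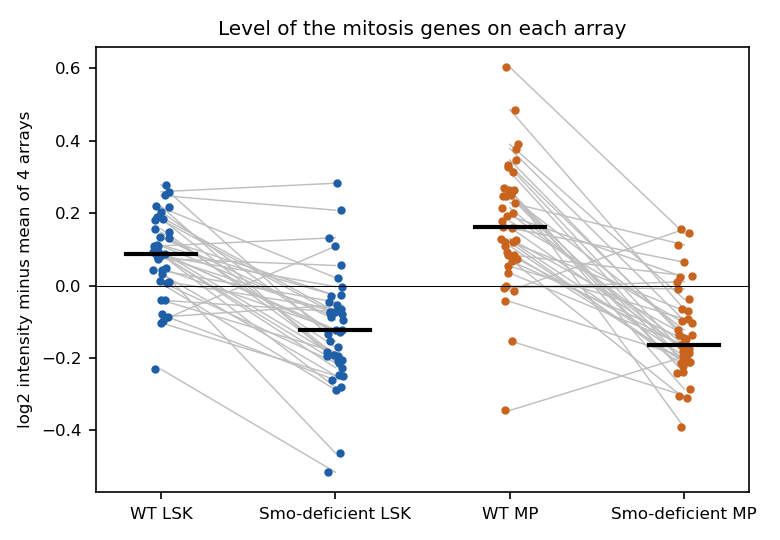
Log2 intensity of the 39 mitosis genes on each of the 4 arrays after the mean of each gene over the 4 arrays was taken off (y axis). Points are genes, grey lines join a gene between WT and Smo-deficient arrays of a population, and black bars are medians, from left to right at 0.09, -0.12, 0.16 and -0.16.

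The next comparison asks whether stem cell enriched LSK cells and myeloid progenitors differ in mitosis transcripts. For most of the set no difference beyond the error of this design was detected. By limma with the pool as a block and Benjamini-Hochberg adjustment over all 22518 probe sets past the filter, 3 of 39 genes were lower in LSK (7.69%), against a background of 7.54%, and 2 of 39 were higher (5.13%), against 16.4%. The share of lower genes is at the background and that of higher genes is below it. The test rests on 2 pools of different genotype with 1 degree of freedom left for the residual of each probe set, so its p-values measure how alike LSK minus MP is in these pools and not the spread between mice.

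Cenpa was lower in LSK by the widest margin: it fell by 0.75 ± 0.09 (SE) on the log2 scale, with an adjusted p of 0.00233 by limma. The difference was -0.83 (WT pool) and -0.66 (Smo-deficient pool), and both LSK arrays were below both MP arrays. A much dimmer Cenpa probe set gave -0.21 with an adjusted p of 0.226 by limma. Plk1 was lower in LSK, at -0.42 ± 0.10 with an adjusted p of 0.0296 by limma, and by similar amounts in both pools (-0.44 and -0.40). Kif2c was lower at -0.34 ± 0.10 with an adjusted p of 0.0485 by limma. Its other probe sets past the filter gave -0.40 and -0.08. The Kif2c call did not hold with no filter, a filter at the 25th percentile, the mean of probe sets or no trend (adjusted p of 0.0541 to 0.0857 by limma). It was also lost without the pool block (adjusted p = 0.221 by limma) and under equal spikes (adjusted p = 0.208 by limma), where calls of other genes were lost too. Higher in LSK were Cdc25b, at 0.54 ± 0.11 with an adjusted p of 0.018 by limma, and Kif23, at 0.46 ± 0.10 with an adjusted p of 0.0238. For Kif2c, Cdc25b and Kif23, as for Cenpa, the LSK and MP arrays did not overlap, whereas Plk1 in WT LSK lay above Plk1 in Smo-deficient MP. The share of all genes without such overlap is not given here, so this only describes the values.

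The other genes with the most negative differences were Anln at -0.35 ± 0.12 (adjusted p = 0.082 by limma), Aurka at -0.28 ± 0.11 (adjusted p = 0.115 by limma) and Birc5 at -0.22 ± 0.10 (adjusted p = 0.146 by limma). Aurka read 10.88, 10.58, 11.25 and 10.77, so that WT LSK lay above Smo-deficient MP. Racgap1 was next in the positive direction, at 0.24 ± 0.11 (adjusted p = 0.178 by limma). Ccnb2 was at 0.24 ± 0.08 (adjusted p = 0.0844 by limma) and Cdk1 at 0.10 ± 0.08 (adjusted p = 0.423 by limma). Mki67 was at -0.12 ± 0.06 (adjusted p = 0.2 by limma) and Top2a at 0.04 ± 0.06 (adjusted p = 0.661 by limma). None of these 8 genes passed the test.

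Within pools the set leaned in no one direction. In the WT pool 24 of 39 genes (61.5%) were lower in LSK, against 52.2% of all genes. The median was -0.10 against -0.01 over all genes. In the Smo-deficient pool 17 of 39 (43.6%) were lower, against 45.6% of all genes. There the median was 0.02 against 0.04 over all genes. The sign was the same in both pools for 26 of 39 mitosis genes (66.7%) and for 76.9% of all genes. Probe sets of a gene also differed here: of the 20 genes with more than 1, 11 had the same sign throughout. Ccna2 was at 0.07 on its brightest probe set and at -0.44 on the other, which passed the test (adjusted p = 0.0112 by limma). Plk4 was at -0.0044 on the brightest and at -0.29 and 0.46 on the others, of which the last passed (adjusted p = 0.0303 by limma).

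Scaling moved these counts. Lower genes numbered 5 of 39 with quantile normalization applied again, where 1427 of all 11901 genes were lower. With arrays shifted to 1 median they numbered 11, against 2486 of all 11904 genes. Under equal spikes 1 gene, Cenpa, was lower, against 393 of all genes. There 0 were higher (also 0 at an unadjusted p under 0.05 by limma), against 284 of all genes. Without the pool block 0 mitosis genes passed limma's test in either direction (1 lower and 2 higher at an unadjusted p under 0.05). Over all genes 84 were then lower and 560 higher. Over all genes the share of calls that were lower in LSK was 31.5% as deposited, 44.9% after quantile normalization, 58.5% with 1 median and 58.1% under equal spikes.

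**Figure D5:**
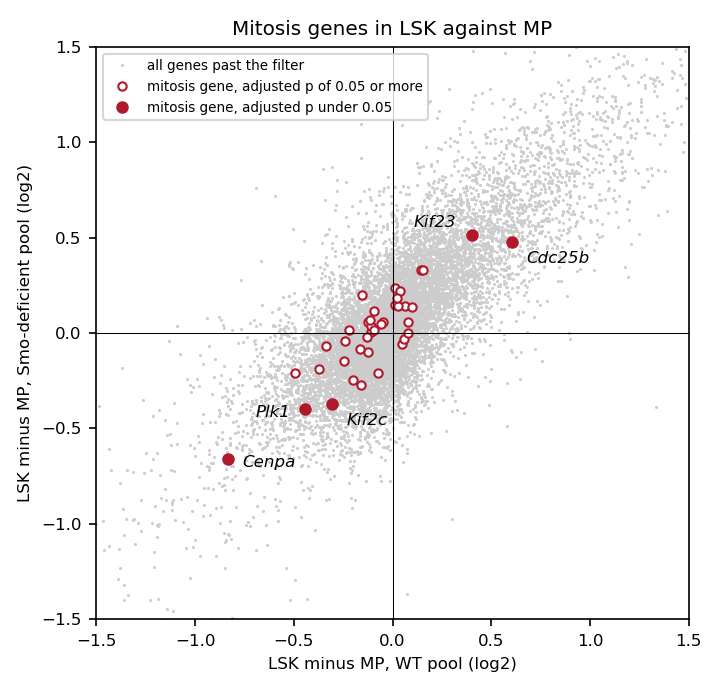
LSK minus MP on the log2 scale in each pool, WT on the x axis and Smo-deficient on the y axis, for all genes past the filter (grey, those beyond 1.5 not drawn) and the 39 mitosis genes (red rings, or filled where limma's adjusted p was under 0.05). Cenpa, Plk1 and Kif2c lie at the lower left and Cdc25b and Kif23 at the upper right, with the rest of the set near the centre.

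Other genes of cell division were followed by lists of the same kind. The shares of all genes to set beside their counts are those given above: 5.84% in LSK and 13% in MP for lower than WT by the counting size, 10.3% and 8.4% for higher, 39.4% for below WT in both populations, and 7.54% lower and 16.4% higher in LSK than in MP by limma. Of 32 further kinetochore and centromere genes past the filter, 25 were below WT in both populations (78.1%), with medians of -0.20 in LSK and -0.23 in MP, and 5 in LSK and 10 in MP were lower by at least the counting size. In LSK the extremes were Cenpw (-0.50), Trip13 (-0.43) and, upward, Mis12 (0.32). In MP they were Knl1 (-0.60), Zwint (-0.41) and again Mis12 (0.24). None of the 32 passed limma's adjusted test of LSK against MP (5 lower and 1 higher at an unadjusted p under 0.05), with Cenpw at -0.40, Ska1 at -0.38 and Cenpt at 0.38 the extremes.

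Of 16 further spindle motors and microtubule factors, 13 were below WT in both populations, with medians of -0.11 and -0.31. Kif18b (-0.41) and Ckap2l (-0.37) were lowest in LSK, Kif20b (-0.61) and Aspm (-0.54) lowest in MP. Cep55, which marks the abscission site, went the other way, at 0.14 and 0.35. It was also higher in LSK than in MP, at 0.78, and with Nusap1 at 0.33 it made up the 2 genes that passed limma's test there. Kif20b (-0.31) and Hmmr (-0.27) were the lowest and did not pass.

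The anaphase-promoting complex gave medians of -0.09 in LSK and -0.21 in MP over 15 genes, 10 of them below WT in both. Anapc1 (-0.36 and -0.37) and Fbxo5, an inhibitor of the complex (-0.28 and -0.36), were lowest in both populations, and Anapc10 (0.17) and Anapc13 (0.26) highest in LSK and in MP. Between LSK and MP, Fzr1 (-0.26), Ube2s (-0.25) and Cdc27 (0.29) were the extremes, and 0 of 15 passed limma's adjusted test (1 lower and 1 higher at an unadjusted p under 0.05). Condensin and cohesin gave -0.08 and -0.18 over 17 genes, 11 of them below WT in both. Ncaph (-0.24), Cdca5 (-0.22) and Pds5a (0.17) were the extremes in LSK, and Ncapg (-1.31), Wapl (-0.47) and Ncaph2 (0.05) in MP. Between LSK and MP, Smc2 was lower (-0.33) and Pds5b (0.60) and Smc1a (0.25) higher by limma, and Ncaph (-0.20) did not pass.

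Mitotic entry regulators showed little shift, with medians of -0.04 and -0.06 over 14 genes, of which 6 were below WT in both populations. Mybl2, the B-Myb factor that binds CHR promoters with MuvB, was the lowest in both, at -0.48 in LSK and -0.43 in MP, followed by Bora (-0.30 and -0.23). Lin9 (0.17) and Cdc25a (0.30) were highest. Mybl2 was also lower in LSK than in MP, at -0.65, as was Cks2, at -0.26, and Wee1, the kinase that restrains CDK1, was higher, at 0.33; these 3 passed limma's test, and Mastl (-0.32) did not.

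DNA replication genes were below WT as well. Of 38 past the filter, 34 were below WT in both populations (89.5%), with medians of -0.18 and -0.22, and 4 in LSK and 10 in MP were lower by at least the counting size. Pole (-0.48) and Rrm1 (-0.35) were lowest in LSK and Rfc3 (0.10) highest. Pola1 (-0.57) and Chaf1b (-0.49) were lowest in MP and Rfc2 (0.05) highest. Between LSK and MP, Cdc6 (-0.72), Orc1 (-0.67), Mcm10 (-0.35) and Fen1 (-0.22) were lower by limma and 0 of 38 higher (2 higher at an unadjusted p under 0.05), with Pola1 (0.39) not passing.

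CDK inhibitors and quiescence genes read the opposite way. None of 8 was below WT in both populations, the medians were 0.38 in LSK and 0.30 in MP, and 5 in LSK and 4 in MP were higher by at least the counting size. Ccng2 (0.65) was highest in LSK and Btg1, an antiproliferative gene, in MP (0.71), while Cdkn1a (0.02) and Cdkn2d (0.09) were lowest in LSK and Cdkn2c (-0.13) and Rbl2 (0.08) in MP. In LSK against MP, 6 of 8 were higher by limma, against 16.4% of all genes, and 0 lower (also 0 at an unadjusted p under 0.05). Cdkn1a, the CDK inhibitor p21, was highest at 1.04, and Cdkn2c (-0.11) and Cdkn1b (0.38) were lowest.

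The promoter elements were set beside the genotype differences as a description. The 25 genes with a CHR match had medians of -0.23 in LSK and -0.34 in MP. The 7 measured genes whose promoters held none, namely Plk4, Nek2, Mad2l1, Cenpe, Nuf2, Birc5 and Pttg1, had medians of -0.14 and -0.09. The ranges overlapped, from -0.51 to 0.21 in LSK with a match and from -0.37 to 0.03 without. Nek2 and Cenpe, with no match in the window, were among the genes lowest against WT, and Cdc25b and Ect2, with one, were among the highest.

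Markers of other cell types moved with the genotype as well. The 9 erythroid progenitor markers were all measured. Of these markers 7 were below WT in LSK, against 53.2% of all genes, and 9 in MP, against 59.7%. Their medians were -0.69 and -0.59. Their summed intensity was 46410 (WT) and 33171 (Smo-deficient) in LSK cells and 109951 and 79200 in MP cells, and all 9 were lower in LSK than in MP by limma, against 7.54% of all genes. Klf1 and Gata1, the defining factors of that lineage, were at -0.69 and -0.79 in LSK and at -0.48 and -0.54 in MP. Myeloid progenitor markers were above WT, with medians of 0.61 and 0.53 over 6 genes. Neutrophil markers had medians of 0.79 and 0.19 over 7 genes, with summed intensities of 73706, 116926, 89288 and 101563 in the same order. Medians of B lineage markers were 0.58 and 0.26 over 6 genes past the filter, and those of macrophage markers 0.66 and 0.00 over 8. LSK markers had 0.41 and 0.09 over 7 genes. Few markers of maturing erythroid (2), T and NK (4) and stromal cells (2) passed the filter. Their medians were 0.67, 0.10 and -0.46 in LSK and 0.19, 0.09 and 0.41 in MP. The 2 stromal genes went opposite ways in LSK, Col1a2 at -1.76 and Pdgfrb at 0.84, and stood at -0.04 and 0.85 in MP. The part of these cells in the genotype differences of the mitosis genes was not tested. The 3' to 5' difference of a control transcript, which grows as RNA breaks down, was 1.55 and 1.53 for Actb in WT and Smo-deficient LSK and 1.34 and 1.31 in MP. For Gapdh it was 1.57 and 1.78 in LSK, higher in the Smo-deficient array, and 1.59 and 1.60 in MP. The part of RNA quality in the differences was not tested either.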

How the data were processed

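The mitosis genes and the lists beside them were chosen with earlier results of these data known. The intensity values of the 4 arrays were deposited as 1 table, made with RMA (no version stated) per the submitters' processing notes. RMA draws arrays to 1 distribution, which can remove a change shared by most genes. The values were linear, and log2 was taken without a pseudocount. Of 45101 probe sets, 64 controls were set aside; 34945 named 1 gene, 932 several and 9160 none in the platform annotation used here. Each gene was read from the brightest, by mean, of the probe sets that name it alone. Probe sets with a mean above the 50th percentile were kept (22518, of 11904 genes). LSK and MP were compared with limma 3.58.1 (R 4.3.3; lmFit, eBayes with trend, two-sided) with the pool as a block, and Benjamini-Hochberg adjusted p under 0.05 was called. Each group has 1 array, and LSK and MP of a genotype come from the same pool per the labels' protocols. The test was tested on simulated data. Genotype differences have no test. Named with all values were the 6 most negative and 3 most positive genes per comparison, cyclins, Cdk1, Mki67, Top2a and genes whose probe sets differ in sign; from other lists, the 2 most negative and 1 most positive. Motifs were counted in RefSeq promoters (GRCm38.p6). Alternatives covered normalization, filters, pseudocount, probe set choice, fold, block and trend; equal spikes was added after the data were seen.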

Additional observations from a re-analysis of the deposited data

How the results depend on the processing

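The list keeps its median below 0 in both genotype comparisons under each alternative run except equal spikes in MP. Counts of genes lower in LSK than in MP by limma were 5 after quantile normalization, 5 after cyclic loess and 11 with 1 median. They were 1 under equal spikes and 0 without the replicate block. Over all genes past the filter the counts in this order were 1427, 1162, 2486, 393 and 84. Higher genes numbered 1 when probe sets with a suffix were left out (29 genes), 0 under equal spikes and 0 without the block. Over all genes these counts were 1614, 284 and 560. The median of LSK minus MP was -0.14 with 1 median and -0.31 under equal spikes, and in the Smo-deficient pool -0.15 and -0.49. Counts of genes lower than WT in LSK by the size used in the report were 14 with 1 median and 20 under equal spikes, 0 at 1.5-fold and 0 at 2-fold, with a median of -0.33 under equal spikes. In MP they were 12 after quantile normalization, 12 after cyclic loess and 1 under equal spikes, 1 at 1.5-fold and 0 at 2-fold. Under equal spikes 3 genes were higher in MP and 19 of 39 lower by any size. The median in MP was -0.20 after quantile normalization, -0.21 after loess and 0.003 under equal spikes. The gap of LSK and MP genotype differences had a median of 0.0105 after quantile normalization and -0.33 under equal spikes. It was also small with 1 median (0.0138) and after cyclic loess (0.0396), against 0.11 as reported. Equal spikes shift each whole array, with the all-gene medians at -0.13 in LSK and 0.27 in MP; the cause of the other changes was not tested. For the whole set 125 values lay within 1.5 times (counts) or 0.1 (medians) of those reported, and 29 did not. Some of the 125 could not move, since dropping or lowering the filter leaves each gene on the same probe set. The genotype counts and the medians of the set then stay as they were. The gaps with 1 median and after cyclic loess are among the 125, because 0.1 is nearly as wide as the gap itself. Leaving out a replicate was not possible, with 1 array a group, and Cenpa lost its call when only its dim probe set was read (adjusted p = 0.226 by limma). The number of arrays limits the precision throughout.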
